A study of Arabidopsis thaliana with 18 samples.

Results

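The genes followed here were 5 plastid ferredoxins and 4 ferredoxin-NADP reductases of Arabidopsis thaliana, 9 genes of the 24951 listed in any library. They were picked by locus and name. FD1 (AT1G10960) and FD2 (AT1G60950) are the leaf-type ferredoxins, FD3 (AT2G27510) is the root-type ferredoxin, and FdC1 (AT4G14890) and FdC2 (AT1G32550) are ferredoxin-like proteins with an extended C-terminus. FNR1 (AT5G66190) and FNR2 (AT1G20020) are the leaf-type reductases. RFNR1 (AT4G05390) and RFNR2 (AT1G30510) are the root-type reductases.

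Ferredoxins are small soluble iron-sulfur proteins of the plastid stroma that carry single electrons. In green leaves they take electrons from photosystem I, and the leaf-type reductase passes them on to NADP+ to make NADPH. In plastids without photosynthesis, such as those of roots, the flow runs the other way: the root-type reductase takes electrons from NADPH made by the oxidative pentose phosphate pathway and hands them through root-type ferredoxin to enzymes such as nitrite reductase.

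RNA was measured in whole wild type seedlings that had been kept in darkness for 7 days on MS medium, which left them etiolated (pale and without chlorophyll), and were then given 0, 1, 2, 4, 8 or 12 h of light. Each time had 3 libraries of polyA RNA, 18 in all, sequenced by the BGISEQ-500 protocol. The series title speaks of leaf, whereas the tissue label of every sample is seedling. There was no parallel set of seedlings left in darkness, so hours of light cannot be told apart from age or time of day. The labels do not say whether the 3 libraries of a time came from separate cultures, so p-values measure only the spread between these samples, which may be technical. In whole seedlings, fewer cells of a type and less RNA per cell cannot be told apart.

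The libraries were evenly deep, at 22408394 to 22760811 expected counts each, with 8 h replicate 3 lower at 20072467. The root markers were mixed. CASP1 (Casparian strip), MYB36 (endodermis) and PYK10 (a root beta-glucosidase) had counts in all 18 libraries. The nutrient transporters IRT1 and NRT2.1 did not exceed 2.27 and 0.33 FPKM, and the root hair genes had few counts outside 2 h. Whether every library held root tissue was not tested. The 3 libraries at 2 h stood apart. The summed counts of the 3 root hair genes COBL9, EXPA7 and EXPA18 were 110, 81 and 50 there and between 0 and 7 in every other library. The shoot epidermis markers SPCH, MUTE, FAMA, EPF2, TGG1, TGG2 and CER1 summed to between 119 and 390.4 FPKM, and the 8 root markers to between 589 and 3753 FPKM with PYK10 as the greatest part. Results at 2 h are therefore given beside these values.

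Levels are in FPKM, fragments scaled to transcript length and library depth, which can be compared between genes. Changes are log2 fold changes with an approximate standard error (SE) from one edgeR quasi-likelihood fit of expected counts over all 18 libraries, and p-values were Benjamini-Hochberg adjusted over the 20569 genes tested. A gene was called higher or lower at an adjusted p under 0.05 and a log2 change of at least 1 in size. All 9 genes were tested. All comparisons with the dark use the same 3 dark libraries.

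The leaf-type genes rose and the root-type genes did not keep a change. After 12 h of light FD1, FD2, FdC1, FdC2, FNR1 and FNR2, 6 of 9, were called higher than in the dark and none was called lower, whereas over all tested genes 13.1% were called higher and 9.19% lower. The call of FdC1 is uncertain, because its reads were divided with an overlapping gene, as given below. FD3, RFNR1 and RFNR2 passed in neither direction at 12 h. By these calls both leaf-type ferredoxins were higher from 1 h on, both leaf-type reductases from 2 h on and FdC2 from 8 h on. None of the 9 was called lower than the dark at any time. Over all tested genes 2.09%, 6.46%, 7.51% and 9% were called lower after 1, 2, 4 and 8 h, so 0 of 9 is near these shares. At an unadjusted p under 0.05 in edgeR the count of lower genes was also 0, and DESeq2 and limma called 0 lower.

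**Figure D1:**
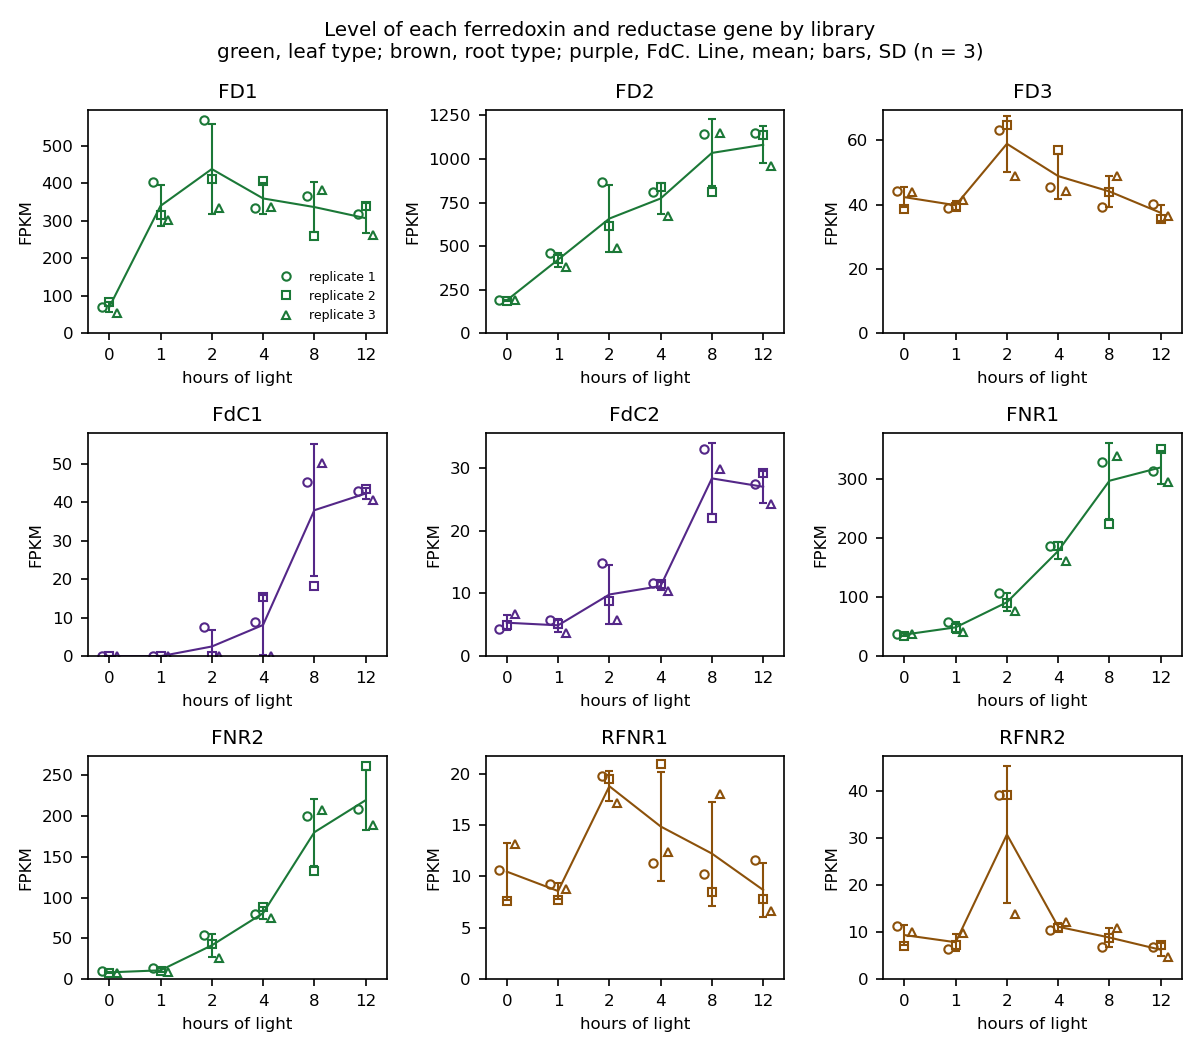
Each panel shows 1 gene, with FPKM on the vertical axis from 0 and hours of light (0, 1, 2, 4, 8 and 12, evenly spaced) on the horizontal axis. Symbols are the 3 libraries, the line joins the means and the bars are the SD (n = 3). FD1 levels off after 1 h, FD2, FNR1 and FNR2 climb to 8 or 12 h, and RFNR2 peaks at 2 h with 39.3, 39.2 and 13.9 FPKM.

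FD2, the main ferredoxin of leaves, had the highest mean level of the 9 genes at every time. Its level was 191, 185 and 192 FPKM in the 3 dark libraries and 1148, 1137 and 960.1 FPKM at 12 h, so the groups did not overlap. In between it measured 460.4, 428 and 379 FPKM at 1 h, 866, 618 and 491 FPKM at 2 h, 810, 838 and 673 FPKM at 4 h, and 1146, 813 and 1147 FPKM at 8 h. All 15 light libraries lay above the dark ones. The log2 change was 1.20 ± 0.20 (SE) at 1 h (adjusted p = 0.00058, edgeR) and 2.56 ± 0.21 at 12 h (adjusted p = 1.03e-07), a 5.89-fold rise. Between 8 h and 12 h the log2 change was 0.06 ± 0.19 and did not pass the test.

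FD1, the minor leaf ferredoxin, rose fastest and then levelled off. It measured 69.8, 84.0 and 55.3 FPKM in the dark and 402, 315 and 301 FPKM after 1 h. The later libraries read 568, 411 and 333 FPKM at 2 h, 334, 406 and 338 FPKM at 4 h, 366, 259.8 and 383 FPKM at 8 h, and 317, 340.3 and 263 FPKM at 12 h. The groups from 1 h on overlapped one another, and all of them lay above the dark group. The log2 change against dark was 2.31 ± 0.24 at 1 h (adjusted p = 6.64e-06, edgeR) and 2.16 ± 0.24 at 12 h (adjusted p = 2.72e-06). None of the 4 steps between neighbouring times from 1 h to 12 h passed the test for FD1, with log2 changes between -0.22 and 0.24.

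At 1 h, FD1 and FD2 were the 2 genes called of the 9, and 3.66% of all tested genes were called higher. FNR1 and FNR2 had log2 changes of 0.47 ± 0.18 (adjusted p = 0.111, edgeR) and 0.54 ± 0.24 (adjusted p = 0.203) at that time. The ratio of summed FD1, FD2 and FD3 to the 4 summed reductases was 4.72 ± 0.689 (SD, n = 3) for dark seedlings, rose to 10.6 ± 0.254 after 1 h and ended at 2.58 ± 0.189 after 12 h. Ferredoxin transcripts were thus in greatest excess over reductase transcripts after the first hour. These ratios are descriptions without a test.

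The 2 leaf-type ferredoxins are 79.6% identical over their aligned coding bases, and each has a coding sequence of 447 bases. FD3, with 468 coding bases, is 66.4% identical to FD2 and 62.1% to FD1. FD1 (chr1:3664187-3665040, plus strand, TAIR10.1) and FD2 (chr1:22444307-22445291, plus strand) are each 1 exon with no intron, while FD3 (chr2:11757955-11759588, minus strand) has 2 exons. Of the FD1 exon, 78 bases (9.1%) overlap the end of AT1G10950 on the same strand, yet FD1 had a whole-number count in every library, as did FD2 and FD3.

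FD3, the root-type ferredoxin, stayed near its dark level. It measured 44.4, 38.8 and 44.0 FPKM in the dark, 38.9, 39.2 and 41.5 FPKM at 1 h and 40.4, 35.5 and 36.6 FPKM at 12 h, with overlapping groups. At 2 h it read 63.2, 64.8 and 48.9 FPKM, above every dark library, with a log2 change of 0.40 ± 0.12 (adjusted p = 0.0158, edgeR) that is under the minimum size for a call. At 4 h it read 45.5, 57.0 and 44.3 FPKM and at 8 h 39.3, 44.1 and 49.0 FPKM. The log2 change at 12 h was -0.13 ± 0.12 (adjusted p = 0.419).

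Within the pool of FD1, FD2 and FD3 the makeup moved in 2 ways. FD3 made up 14.1% ± 1.32 (SD, n = 3) of the summed FPKM of dark seedlings, but 5.02% ± 0.717 after 1 h and 2.65% ± 0.280 after 12 h. The share of FD1 was 23.1% ± 4.14 before light, 42.2% ± 2.21 after 1 h and 21.5% ± 0.887 after 12 h. The pool itself went from 301.5 ± 9.10 to 1426 ± 144 FPKM, so the fall in the share of FD3 came with a nearly level FD3 and a larger pool. These shares are descriptions without a test.

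**Figure D2:**
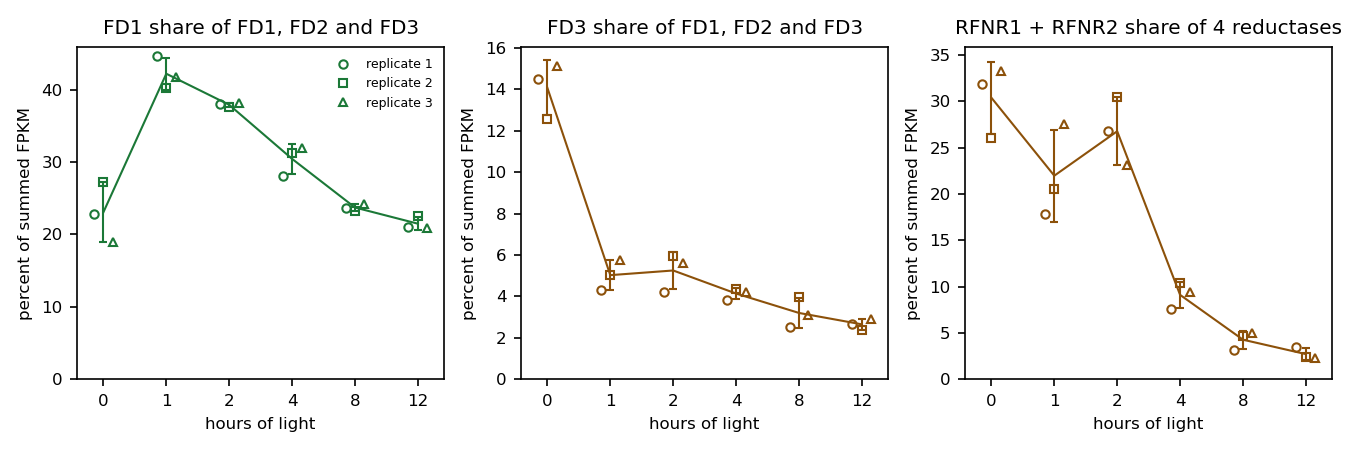
The panels show FD1 and FD3 as a percent of the summed FPKM of FD1, FD2 and FD3, and RFNR1 plus RFNR2 as a percent of all 4 reductases, against hours of light. Symbols are libraries, lines means and bars the SD (n = 3). FD1 peaks at 42.2% at 1 h, FD3 falls from 14.1% to 2.65%, and the root-type reductases go from 30.4% to 2.70% with 26.8% at 2 h.

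The leaf-type reductases were called higher later than FD1 and FD2, and their 12 h changes were larger. FNR1, which anchors the reductase pool to the thylakoid in Arabidopsis, measured 37.3, 34.1 and 38.3 FPKM in the dark, 58.7, 47.8 and 40.2 FPKM at 1 h and 107, 90.3 and 76.8 FPKM at 2 h. It reached 187, 186 and 162 FPKM at 4 h, 330.0, 223 and 339 FPKM at 8 h and 314, 351 and 295 FPKM at 12 h. Every light library lay above every dark one, and the 8 h and 12 h groups overlapped. The log2 change was 1.24 ± 0.18 at 2 h (adjusted p = 4.99e-05, edgeR) and 3.18 ± 0.19 at 12 h (adjusted p = 4.44e-09), a 9.06-fold rise.

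FNR2, the second leaf-type reductase, had the steepest rise of the 8 genes detected in the dark. It measured 9.41, 7.37 and 7.95 FPKM in the dark, 13.3, 10 and 8.90 FPKM at 1 h and 54.3, 43.6 and 26.3 FPKM at 2 h. It then read 79.2, 88.4 and 74.8 FPKM at 4 h, 199.9, 133 and 207 FPKM at 8 h, and 208, 261 and 189 FPKM at 12 h. Each group from 2 h on was above the dark group, and 1 h overlapped it. The log2 change was 2.27 ± 0.25 at 2 h (adjusted p = 4.87e-06, edgeR), 3.32 ± 0.26 at 4 h (adjusted p = 1.1e-07) and 4.78 ± 0.28 at 12 h (adjusted p = 3.13e-09), a 27.4-fold rise.

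FNR2 was called higher at 3 steps in a row: 2 h against 1 h (log2 1.74 ± 0.24), 4 h against 2 h (1.04 ± 0.24) and 8 h against 4 h (1.19 ± 0.24). The share of all tested genes called higher was 15.7%, 2.04% and 1.9% at these steps. FNR1 was called at 1 of them, 4 h against 2 h, with a log2 change of 1.03 ± 0.18 (adjusted p = 0.00154, edgeR). Without 2 h replicate 3 the change at that step was 0.91 for FNR1 and 0.81 for FNR2, both under the minimum size, and without 4 h replicate 1 it was 0.99 for FNR1. With library size scaling alone it was 0.96 and 0.99, and limma on log2(FPKM + 1) gave 0.97 for FNR1. The ratio of FNR1 to FNR2 narrowed from 4.47 ± 0.445 (SD, n = 3) before light to 2.32 ± 0.520 after 2 h and 1.47 ± 0.112 after 12 h, a description without a test.

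FNR1 and FNR2 are 75.3% identical over their aligned coding bases, RFNR1 and RFNR2 77.3%, and a leaf-type against a root-type reductase between 60.3% and 63.1%. FNR1 (chr5:26450964-26453199, minus strand, TAIR10.1) shares 191 exon bases (12.7%) with AT5G66180 on the opposite strand, and its counts were fractional in all 18 libraries, so reads had been divided between genes. The strand setting is not given in the sources used here. The count assigned to AT5G66180 lay between 770.05 and 1014 in the dark and between 264 and 493 from 2 h on. The sum of both genes was 1920 to 2315 counts in the dark and 10526 to 12453 at 12 h, so the rise was present in the undivided reads. FNR2 (chr1:6942625-6945091, plus strand) overlaps no other listed locus and had whole counts.

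FNR2 was also divided over 3 annotated transcript forms, and their makeup moved at 1 h before the gene itself was called. Form 2 keeps an intron of 272 bases (chr1:6942956-6943227) that forms 1 and 3 remove. Its annotated coding sequence starts downstream of that intron and is 768 bases long, against 1110 bases in the other forms. Form 2 made up 10.6%, 13.2% and 17.3% of the FPKM of FNR2 in the dark and 46.1%, 48.9% and 41.2% at 1 h, groups that did not overlap. Its level was 1.00, 0.97 and 1.37 FPKM in the dark and 6.14, 4.89 and 3.67 FPKM at 1 h, while the mean of form 3 was 6.53 FPKM in the dark and 5.54 FPKM at 1 h. Later the share of form 2 was 23.6% ± 5.2 (SD, n = 3) for the 2 h libraries and 27.5% ± 4.0 for those of 4 h. It came to 16.6% ± 2.2 for 8 h and 11.7% ± 3.9 for 12 h, with libraries that overlapped the dark ones.

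The borders of the kept intron are shown because they are what tells form 2 from the spliced forms. They are from the RefSeq genome TAIR10.1, plus strand, 5′ to 3′, with 10 exon bases and 20 intron bases each, and the capitals mark the first and the last 2 bases of the intron.
FNR2 5′ border (chr1:6942946-6942975): gtttactaagGTactttataagcttttctc
FNR2 3′ border (chr1:6943208-6943237): ttgttgggtgtgtttaaaAGggtgcttttt
The 3 forms share most of their bases, so their shares are the estimates of the authors' program from reads that mostly fit more than one form, and were not tested here.

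**Figure D3:**
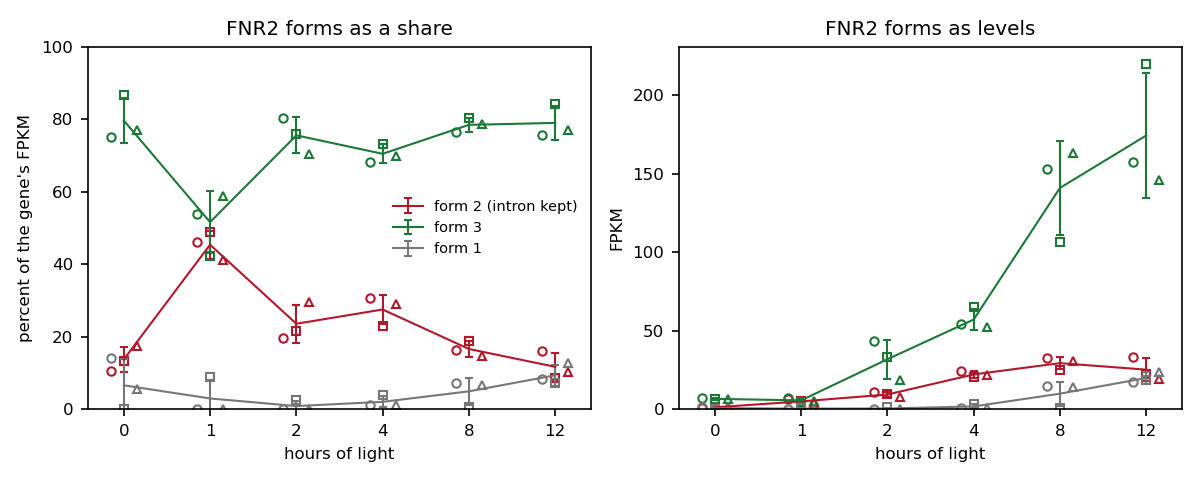
The left panel shows each annotated transcript form of FNR2 as a percent of the FPKM of the gene and the right panel its FPKM, against hours of light. Symbols are the 3 libraries of a time (circle, square and triangle for replicates 1, 2 and 3), lines means and bars the SD (n = 3). The form that keeps the intron rises from 13.7% to 45.4% at 1 h, when the FPKM of the gene is still near 10.7, and is 11.7% at 12 h.

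The root-type reductases were low throughout, with their highest means at 2 h. RFNR1 measured 10.6, 7.61 and 13.2 FPKM in the dark, 19.8, 19.4 and 17.1 FPKM at 2 h and 11.6, 7.77 and 6.67 FPKM at 12 h. The 2 h libraries lay above all dark ones and the 12 h libraries overlapped them. Its other libraries read 9.27, 7.69 and 8.76 FPKM at 1 h, 11.3, 21.0 and 12.3 FPKM at 4 h, and 10.2, 8.45 and 17.98 FPKM at 8 h. The log2 change at 2 h was 0.79 ± 0.27 against dark (adjusted p = 0.025, edgeR) and 1.02 ± 0.27 against 1 h (adjusted p = 0.00618), the latter called by a narrow margin. It fell under the minimum size in 4 of the 18 fits that leave out 1 library (0h replicate 2, 1h replicate 2, 1h replicate 3 or 2h replicate 1), with values of 0.95 to 1.00. The same step was 0.98 with DESeq2's size factors or test, and 0.96 in a fit of the 2 groups alone. At 12 h the change against dark was -0.18 ± 0.27 (adjusted p = 0.617).

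RFNR2 was the single root-type gene called against the dark. It measured 11.3, 6.95 and 9.92 FPKM in the dark, 6.39, 7.25 and 9.89 FPKM at 1 h, and 39.3, 39.2 and 13.9 FPKM at 2 h. Replicates 1 and 2 at 2 h were far above every other library, and replicate 3 was above the dark libraries by a small margin. It read 10.47, 10.8 and 12.2 FPKM at 4 h, 6.93, 8.82 and 10.8 FPKM at 8 h and 6.89, 7.16 and 4.67 FPKM at 12 h. The log2 change was 1.66 ± 0.32 at 2 h (adjusted p = 0.000623, edgeR), then fell by 1.40 ± 0.32 from 2 h to 4 h (adjusted p = 0.00697), and was -0.50 ± 0.32 at 12 h against dark (adjusted p = 0.212). The step from 2 h to 4 h was not called in a fit of the 2 groups alone (-1.41, adjusted p = 0.0582, edgeR). At 2 h, 5 of the 9 genes were called higher than the dark (FD1, FD2, FNR1, FNR2 and RFNR2), beside 13.9% of all tested genes. From 1 h to 2 h, 3 of 9 were called higher (FNR2, RFNR1 and RFNR2), beside 15.7%. By adjusted p alone these counts were 8 and 7, beside 47% and 49.3% of all tested genes in either direction. From 2 h to 4 h RFNR2 was called lower, as were 7.73% of all tested genes.

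Root markers did not move as one at 2 h. PYK10 measured 3187, 3573 and 1026 FPKM in replicates 1, 2 and 3 at 2 h and between 536 and 1250.1 FPKM in all other libraries, so its 2 highest libraries were the 2 with the highest RFNR2. The root hair genes COBL9, EXPA7 and EXPA18 were also highest in these 3 libraries, as given above. CASP1, by contrast, measured 165, 157 and 82.1 FPKM at 2 h against 162, 145 and 39.4 FPKM in the dark, and MYB36 21.4, 21.4 and 12.6 FPKM against 22.1, 19.5 and 13.6 FPKM. IRT1 was at 0 FPKM in all 3 libraries at 2 h, against 2.27, 0.18 and 0 FPKM in the dark. TGG2, a myrosinase of the shoot, was 19.04, 17.1 and 1.65 FPKM at 2 h and at most 2.15 FPKM elsewhere. From 1 h to 2 h, 4 of the 7 shoot epidermis markers and 3 of the 5 tested root markers were called higher, beside 15.7% of all tested genes. The part of these markers in the RFNR1 and RFNR2 values was not tested.

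**Figure D4:**
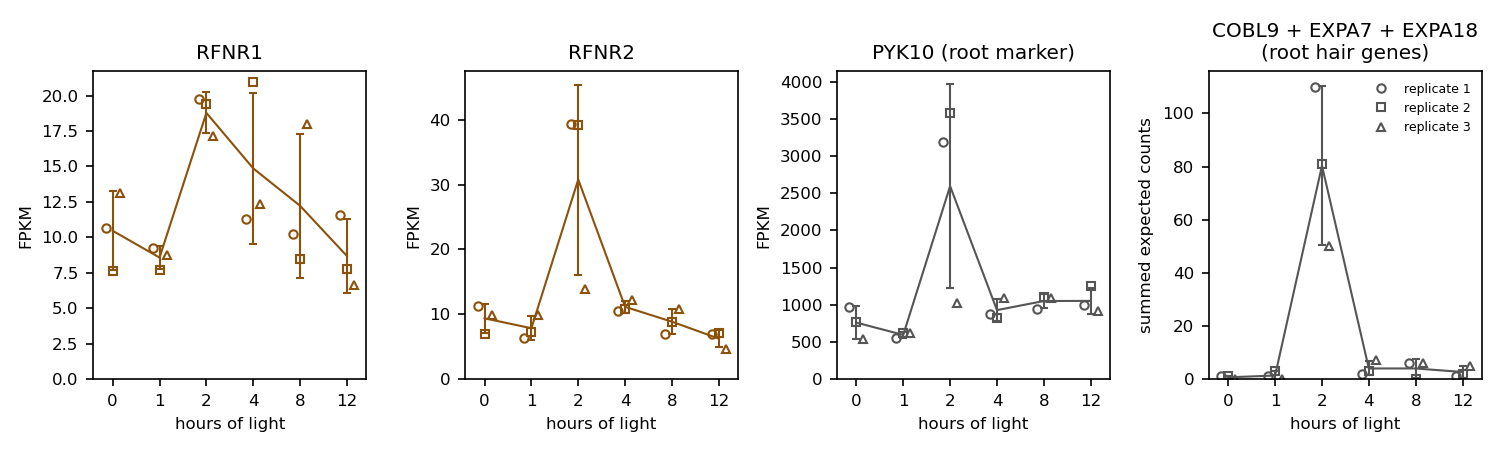
RFNR1, RFNR2 and PYK10 in FPKM and the summed expected counts of 3 root hair genes are plotted against hours of light. Symbols are libraries, lines means and bars the SD (n = 3). At 2 h RFNR2 and PYK10 are high in replicates 1 and 2 and lower in replicate 3 (39.3, 39.2 and 13.9 FPKM for RFNR2), and the root hair counts are 110, 81 and 50.

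Leaf against root-type forms were compared within each library as the log2 ratio of FPKM, in 5 pairs. The reductase pairs share genes with one another, so their results are not independent. FD1, which levelled off early, was not paired. FD2 to FD3 stood at 2.11, 2.26 and 2.12 in the dark and at 4.83, 5.0 and 4.71 at 12 h. FNR2 to RFNR2 stood at -0.26, 0.08 and -0.32 in the dark, where the genes were near equal, and at 4.92, 5.19 and 5.34 at 12 h. FNR2 to RFNR1 went from -0.18, -0.05 and -0.73 to 4.16, 5.07 and 4.83. All 3 libraries at 12 h were above all 3 dark ones in each of the 5 pairs. The mean shift from dark to 12 h was 2.68 for FD2 to FD3, 3.40 for FNR1 to RFNR1, 3.71 for FNR1 to RFNR2, 5.0 for FNR2 to RFNR1 and 5.31 for FNR2 to RFNR2. Each gave p = 0.1 in a two-sided exact permutation test, the smallest p that 3 against 3 libraries allow.

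Over all 15 light libraries against the 3 dark ones, where 816 arrangements allow a p of 0.00123, FD2 to FD3 was higher by 1.88 with 15 of 15 light libraries above the highest dark one (exact permutation test, adjusted p = 0.00613 over the 5 pairs). The light libraries are 3 at each of 5 times and not 15 replicates of a single condition. The p-values of this paragraph treat them as exchangeable, although the mean of FD2 to FD3 was 3.40 at 1 h and 4.85 at 12 h. FNR1 to RFNR1 was higher by 1.82 and FNR2 to RFNR1 by 2.82, again in 15 of 15 libraries (exact permutation test, adjusted p = 0.0276 each). FNR2 to RFNR2 was higher by 2.83 in 14 of 15 libraries (exact permutation test, adjusted p = 0.0276). FNR1 to RFNR2 was higher by 1.84 in 12 of 15 libraries and did not pass (exact permutation test, adjusted p = 0.0809). In that pair the 2 h libraries read 1.45, 1.20 and 2.47 against 1.73, 2.29 and 1.95 in the dark. Without the 2 h libraries, an alternative added after seeing the data, its shift was 2.37 (exact permutation test, adjusted p = 0.0044). Leaving out a dark library leaves 2 of them, and 3 of the 4 passing pairs then missed the threshold at least once, with adjusted p between 0.0551 and 0.0827 (exact permutation test): FNR1 to RFNR1 without 0h replicate 1 or 3, FNR2 to RFNR1 without 0h replicate 3, and FNR2 to RFNR2 without any 1 of the 3.

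**Figure D5:**
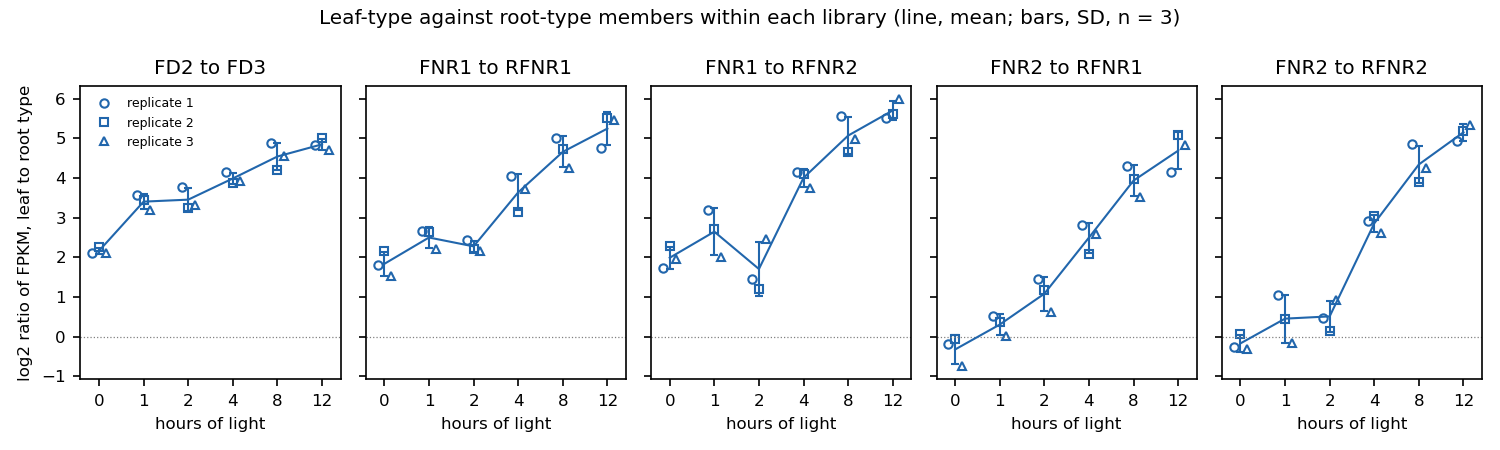
Each panel shows the log2 ratio of the FPKM of a leaf-type to a root-type gene within a library against hours of light, with a dotted line at equal levels. Symbols are libraries, lines means and bars the SD (n = 3). FNR2 to RFNR2 climbs from -0.16 in the dark to 5.15 at 12 h, and FNR1 to RFNR2 is lower at 2 h (1.71) than in the dark (1.99).

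As a share of the 4 summed reductases, the root-type pair held 30.4% ± 3.87 (SD, n = 3) before light. It held 22.0% ± 4.98 after 1 h, 26.8% ± 3.68 after 2 h, 9.10% ± 1.43 after 4 h and 2.70% ± 0.629 after 12 h. The root-type sum itself was 19.8 ± 4.61 FPKM in the dark and 14.9 ± 3.58 FPKM at 12 h, and the leaf-type sum 44.8 ± 2.92 and 539 ± 65.4 FPKM.

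Of the genes with whole counts that were called higher at 12 h, FdC2 was the last to be called. It measured 4.33, 5.02 and 6.66 FPKM in the dark, 5.85, 5.17 and 3.75 FPKM at 1 h, 14.9, 8.85 and 5.75 FPKM at 2 h and 11.7, 11.5 and 10.4 FPKM at 4 h. It read 33.1, 22.1 and 29.9 FPKM at 8 h and 27.5, 29.3 and 24.3 FPKM at 12 h. The 4 h libraries already lay above the dark ones, and the 8 h libraries above both. At 2 h the log2 change against dark was 0.69 ± 0.26 (adjusted p = 0.0376, edgeR), under the minimum size for a call. The log2 change was 0.99 ± 0.26 at 4 h (adjusted p = 0.00551, edgeR), just under the minimum size, and 1.00 to 1.12 without 0h replicate 2, 0h replicate 3 or 4h replicate 3. It was 2.33 ± 0.26 at 8 h (adjusted p = 3.48e-06), and the step from 4 h to 8 h was 1.34 ± 0.25 (adjusted p = 0.00401). A second annotated form of FdC2 was listed at 0% of the gene before light and at 17.6% ± 9.7 (SD, n = 3) after 12 h.

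FdC1 was listed at 0 in all 6 libraries of the dark and 1 h groups and at 42.9, 43.3 and 40.5 FPKM at 12 h. In between it was listed at 7.54, 0 and 0 FPKM at 2 h, 8.90, 15.4 and 0 FPKM at 4 h and 45.2, 18.3 and 50.2 FPKM at 8 h. It was called higher at 4 h (adjusted p = 0.0206, edgeR), 8 h (adjusted p = 0.00335) and 12 h (adjusted p = 0.00309), and the 4 h call was lost without 4h replicate 2 (adjusted p = 0.0604). FdC1 is 1 exon of 688 bases (chr4:8520819-8521506, plus strand, TAIR10.1), and all of it lies within exons of AT4G14900 on the opposite strand. Its count was fractional wherever it was above 0, in 9 libraries.

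AT4G14900 itself had 4889, 4998 and 4796 counts in the dark and 2711, 2746 and 2450 counts at 12 h, and FdC1 took 19.3%, 19.3% and 20% of the sum of both at 12 h. With the reads of both genes summed, an alternative added after seeing the data, the log2 change was -0.55 at 12 h (adjusted p = 0.0018, edgeR) and -0.75 at 4 h (adjusted p = 0.000158). How many reads of FdC1 were assigned to AT4G14900 was not tested, and no fold against the dark is given for FdC1. Without FdC1, 4, 5 and 5 of the remaining 8 genes were called higher at 4, 8 and 12 h. With it the counts were 5, 6 and 6 of 9, beside 11%, 13.6% and 13.1% of all tested genes.

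In the F test over all 6 times, all 9 genes had an adjusted p under 0.05 (edgeR), with the largest at FD3 (0.0128) and RFNR1 (0.0133), and so did 75% of all tested genes. Between 8 h and 12 h none of the 9 was called in edgeR, DESeq2 or limma, in edgeR 0% of all tested genes were, and 0 of the 9 had an unadjusted p under 0.05 in edgeR. The log2 changes of the 8 genes other than FdC1 at this step lay between -0.49 and 0.27. The 9 genes together rose from 0.0603% ± 0.00216 to 0.330% ± 0.0332 of all summed FPKM between the dark and 12 h groups (SD, n = 3).

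The upstream sequences of genes that rose are shown to set their first bases side by side, FdC2 and FNR1 because a searched motif is present, and FNR2 as the gene with the steepest rise. In the 250 bases before the start of each of the 9 genes, both strands were searched for the G-box (CACGTG), the I-box (GATAAG) and the evening element (AAAATATCT). The G-box was found in FdC2, at 110 and 91 bases upstream, and in 6.49% of the 27444 promoters of that length. The I-box was found in FNR1, at 7 bases upstream, in FdC1, at 11 bases upstream, and in 12.3% of promoters. The windows of FD1, FdC1, FdC2, FNR1, RFNR1 and RFNR2 lie partly or wholly in another gene. The match of FdC1 is inside AT4G14900, the FD1 window is inside AT1G10950, and RFNR2 has 11 bases outside other genes. The evening element was in none of the 9 and in 2.36% of promoters. The sequences below are from the RefSeq genome TAIR10.1, on the strand of the gene, 5′ to 3′, cut where another gene begins, with the motifs in capitals.
FdC2 (chr1:11774295-11774483, minus strand): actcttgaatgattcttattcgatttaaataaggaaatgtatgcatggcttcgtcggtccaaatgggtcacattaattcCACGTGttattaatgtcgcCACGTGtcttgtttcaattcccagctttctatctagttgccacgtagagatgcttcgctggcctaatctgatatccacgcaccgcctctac
FNR1 (chr5:26453200-26453275, minus strand): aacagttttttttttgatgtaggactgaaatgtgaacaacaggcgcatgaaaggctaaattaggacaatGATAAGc
FNR2 (chr1:6942375-6942624, plus strand): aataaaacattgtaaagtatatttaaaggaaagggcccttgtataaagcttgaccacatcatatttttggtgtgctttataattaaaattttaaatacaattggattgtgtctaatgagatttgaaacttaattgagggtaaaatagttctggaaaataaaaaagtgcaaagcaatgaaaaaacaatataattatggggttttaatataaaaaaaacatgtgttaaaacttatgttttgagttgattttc
The match in FNR1 ends 1 base before the annotated start. A match is a run of letters and does not show that a factor binds there.

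Across the 18 libraries the members were compared by the correlation of log2 CPM (Pearson, n = 18, over libraries that share their time series). No grouping was computed. FNR1 and FNR2 had r = 0.99, FD2 had r = 0.94 with each of them, and FdC2 had r = 0.95 with each of them. FD1 was nearer to FD2 (r = 0.81) than to FNR1 (0.57) or FNR2 (0.58). The root-type genes were alike instead: FD3 with RFNR2 at r = 0.87, FD3 with RFNR1 at 0.82 and RFNR1 with RFNR2 at 0.71. All 3 have their highest means in the 2 h libraries, which stood apart, and without these the values were 0.66, 0.79 and 0.59 (n = 15, added after seeing the data). Over all 18 libraries FD2 with FD3 was at r = 0.12 and FNR1 with RFNR2 at -0.18.

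Of 13276 genes with a mean of at least 5 FPKM, those nearest to each member by the same correlation were the following. FD2 was nearest to AT4G28740 (r = 0.992), TRXF1 (0.989), the thioredoxin f1 of the plastid, and AT5G08050 (0.986). AT4G28740 overlaps the locus of the photosystem I gene PSAE1, whose counts were fractional in 18 libraries. Reads may have been divided between them, which was not tested. FNR1 was nearest to EMB1030 (0.996), AT5G28750 (0.995) and AT4G02530 (0.995), and FNR2 to AT4G02530 (0.995), PPL1 (0.995) and SHM1 (0.995), the photorespiratory serine hydroxymethyltransferase. FdC2 was nearest to MAP1D (0.991), AT3G26070 (0.99) and AT5G27560 (0.989), and FdC1 to emb2737 (0.957), CHLM (0.956), a methyltransferase of chlorophyll synthesis, and AT4G12060 (0.949). FdC1 was above 0 in only 9 libraries, with reads divided between it and AT4G14900, so its nearest genes are uncertain.

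FD1 had a different set, cPT4 (0.968), SPS2 (0.965), the plastid solanesyl diphosphate synthase, and AT1G78820 (0.961). The root-type genes were nearest to AT2G31370 (0.888), AT1G28660 (0.877) and QUA3 (0.874) for FD3, to AT3G59670 (0.941), AT5G65860 (0.921) and UBA_2 (0.879) for RFNR1, and to GDPD5 (0.955), NRS/ER (0.947) and TPS5 (0.943) for RFNR2. Without the 2 h libraries the correlations with these genes were 0.661 to 0.713 for FD3, 0.83 to 0.935 for RFNR1 and 0.634 to 0.742 for RFNR2. No gene was shared between the nearest 3 of a leaf-type and a root-type member, which follows from the low correlations between these members and is no separate result.

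Genes that work with ferredoxin were described from 9 lists of 48 genes, of which 47 were tested. At 12 h, 25 were called higher, 1 lower and 21 neither, beside 13.1% higher and 9.19% lower over all tested genes, whose median log2 change was -0.01. At 1 h 1 of the 47 was called higher, beside 3.66% of all tested genes, so the count is near that share. It was PGR5 (log2 1.25, adjusted p = 2.18e-05, edgeR), a protein of cyclic electron flow around photosystem I. At 2 h 14 were called higher and 2 lower, beside 13.9% higher and 6.46% lower over all tested genes, in the libraries that stood apart in root hair genes, PYK10 and TGG2. The part of these markers in the partner values was not tested.

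Among 7 genes for docking at photosystem I and for tethers of the reductase, 5 were called higher and 1 lower at 12 h, with a median log2 change of 1.75. TIC62, which tethers the leaf-type reductase at the thylakoid and the inner envelope, had a log2 change of 3.18 ± 0.29, and PSAE1, a stromal subunit of photosystem I, 2.91 ± 0.31. Its paralog PSAE2 had 0.96 ± 0.18, under the minimum size. LIR1, a light-regulated protein that binds the leaf-type reductase, was the single partner called lower (-1.55 ± 0.40, adjusted p = 0.00495, edgeR), and it was also lower at 2 h (-3.64, adjusted p = 1.02e-05).

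All 4 plastid desaturases, which take electrons from ferredoxin to put double bonds in fatty acids, were called higher at 12 h, from SSI2 at 1.40 ± 0.09 to FAD8 at 5.39 ± 0.40. All 3 genes of ferredoxin-thioredoxin reductase, which passes electrons on to thioredoxins, were called higher, from FTRA1 at 1.16 ± 0.15 to FTRA2 at 1.80 ± 0.17. Of 4 genes of cyclic electron flow, 2 were called higher, PGRL1A at 3.77 ± 0.19 and PGR5 at 2.50 ± 0.15. NDHS, the ferredoxin-docking subunit of the NDH complex, was lowest at 0.32 ± 0.16 and was not called. The median log2 changes of these lists were 2.51, 1.77 and 1.52.

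Of 4 nitrogen and sulfur enzymes, 2 were called higher: GLU1, the leaf ferredoxin-dependent glutamate synthase, at 2.56 ± 0.25, and NIR1, nitrite reductase, at 1.10 ± 0.32. GLU2, the glutamate synthase of roots, had -0.49 ± 0.19. Of 12 plastid iron-sulfur assembly genes, 6 were called higher, with HCF101 at 2.1 ± 0.24 and NFU3 at 1.49 ± 0.11 highest and NFU1 at 0.04 ± 0.15 and NFU2 at 0.53 ± 0.08 lowest.

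The plastid oxidative pentose phosphate pathway, which feeds the root-type reductase with NADPH, had 1 of 6 genes called higher, G6PD1 at 1.89 ± 0.16. PGD3 was lowest at -0.54 ± 0.18, and the median of this list was -0.01. Of 4 bilin and chlorophyll breakdown enzymes 1 was called, ACD2 at 1.43 ± 0.16, with HY1, the heme oxygenase of phytochrome chromophore synthesis, at -0.58 ± 0.22. Of 3 tested genes among the other ferredoxins and the mitochondrial chain 1 was called, MFDX1 at 1.38 ± 0.17, with the mitochondrial reductase MFDR at -0.01 ± 0.13. FD4 did not pass the expression filter. Counts were fractional in some or all libraries for PSAE1, PSAE2, LIR1, PGRL1A, NDHS, GLU1, FAD8, NFU1, ACD2, PGD3 and MFDX1, so those values are uncertain.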

How the data were processed

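The deposited gene and transcript tables give, per the file headers, an expected count (an estimated number of reads) and an FPKM value for each feature. The submitters' processing notes name HISAT2, Bowtie2 and RSEM; versions, strand setting and genome build are not given in the sources used here. Files listed only features with reads, and absent ones were set to 0. Coordinates in the files match TAIR10.1 for 24745 of 24746 genes found in RefSeq.

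Expected counts were rounded and fitted with edgeR 4.0.16 (R 4.3.3): filterByExpr, TMM, 6 group means, quasi-likelihood test, Benjamini-Hochberg over 20569 genes. The SE is the size of the change over the square root of F. FPKM gave levels, shares and log2 ratios, tested by exact permutation (Python 3.11.15). The script was tested on simulated data. No protein table was used, so identity was taken from aligned coding bases (Biopython 1.88). DESeq2 1.42.0 and limma 3.58.1 served as alternatives. No pair of replicates was identical: chi-square per gene was 10.96 to 122.65. The highest values were those of replicate 3 against replicates 1 and 2, at 96.54 and 122.65 for 0 h and 117.8 and 104.06 for 2 h. Replicates 1 and 2 gave 23.38 at 0 h and 28.32 at 2 h.

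The members and lists were chosen with earlier results of these data known. Named were the 9 members, the highest and lowest change at 12 h in each list (2 each in lists of 7 or more), and the 3 genes nearest each member. NIR1 and PGR5 were named after their values were seen.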

Additional observations from a re-analysis of the deposited data

How the results depend on the processing

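The counts of members called against dark at 1, 8 and 12 h stayed within 1.5 times under other size factors, no expression filter, DESeq2, limma on log2(FPKM + 1), a fit of the 2 groups alone, and with each library left out. With the adjusted p alone the count was 8 in place of 5 at 2 h and 7 in place of 3 for 2 h against 1 h. With library size only, it was 1 in place of 3 for 4 h against 2 h. Leaving out 1 library at a time gave 2 to 5 for 2 h against 1 h and 1 to 4 for 4 h against 2 h, and 2h replicate 3 gave both the 5 and the 1.

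Same-numbered libraries did not deviate together (mean r = -0.015 over 45 pairs, from -0.395 to 0.297), so the numbers were not taken to pair them. The 3 same-numbered pairs of 2 h and 0 h were higher, at 0.116, 0.297 and 0.289. At these times the deposited tables carry other numbers than the sample titles, whose numbers were used, so this check and the block are uncertain there. With a replicate block, 2, 5, 5, 6 and 6 members were called against dark at 1, 2, 4, 8 and 12 h, as without it.

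Among the leaf to root-type ratios over all light libraries, FNR1 to RFNR2 passed without the 2 h libraries (2.37). With each library left out the shift lay between 1.67 and 1.99 for FNR1 to RFNR1, 1.68 and 2.02 for FNR1 to RFNR2 (passing without 2h replicate 1 or 2), 2.61 and 2.99 for FNR2 to RFNR1, and 2.64 and 3.03 for FNR2 to RFNR2.

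FdC1 summed with AT4G14900 reversed to -0.59, -0.75, -0.66 and -0.55 at 2, 4, 8 and 12 h against dark, -0.37 from 1 h to 2 h and -0.16 from 2 h to 4 h. AT4G14900 makes up most of this sum, with 4796 to 4998 counts in the dark and 2450 to 2746 at 12 h. With 1 library left out, changes that passed no test also changed sign: FdC2 at 1 h (-0.23 to 0.10), RFNR1 (-0.08 to 0.49) and RFNR2 (-0.17 to 0.15) at 8 h, FD1 from 1 h to 2 h (-0.01 to 0.40), from 2 h to 4 h (-0.39 to 0.03) and from 4 h to 8 h (-0.11 to 0.11), FD3 (-0.15 to 0.03) and RFNR1 (-0.61 to 0.09) from 4 h to 8 h, and FD2 (-0.07 to 0.15), FdC1 (-0.16 to 0.40), FdC2 (-0.19 to 0.07) and FNR1 (-0.05 to 0.20) from 8 h to 12 h. The causes were not tested. The spread at each time rests on 3 libraries.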
